A study of Drosophila melanogaster with 2 samples.

Results

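Chromatin immunoprecipitation followed by sequencing (ChIP-seq) was described here at 10 marker genes of neurons and glia out of 13945 protein-coding genes on the 6 main chromosome arms. The genes were taken by name and not by a rule on their measured values, though with earlier results of these data known. They were elav, fne, Syt1 and nSyb for neurons, and repo, moody, gcm, loco and nrv2 for glia. The gene pros was taken for dividing neural precursors and their young progeny. A gene's locus was taken as the gene body plus a flank of 2 kb at either end, and a peak belonged to it when its summit lay in that span. Such a summit does not show which gene the site acts on. The single group consisted of 2 biological replicates of whole Drosophila melanogaster embryos aged 0 to 18 hours, from the strain lmd-GFP, whose lmd-eGFP fusion protein was precipitated with anti-GFP antibody. Both samples carry the fusion and no second group is labelled, so no condition was compared and no test was made. Control libraries are named in the labels but not analysed here. Whole embryos mix muscle precursors with neurons, glia and every other tissue, and a peak does not show which of them it came from.

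The gene lame duck, or lmd, encodes a transcription factor with zinc fingers that is best known from fusion-competent myoblasts, so neural genes serve as a view of its sites outside the muscle programme. In the fly embryo, neuroblasts divide asymmetrically and pass pros into the smaller daughter cell, whose progeny become neurons or glia. The switch gene gcm starts glial fate in most glia outside the midline and acts through repo, which glia then keep. Neurons are recognised by RNA-binding proteins of the ELAV family, such as elav and fne, and later by proteins of synaptic vesicles, such as Syt1 and nSyb. Some of these markers also act elsewhere: gcm in blood cells and nrv2 in epithelia, for example.

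In the conservative set, the authors' stricter list of peaks from both replicates together, 7 of the 10 genes had at least 1 summit in the locus, and 33.5% of all protein-coding genes did. The 7 genes were elav, fne, nSyb, moody, loco, nrv2 and pros, which held 12 summits between them. Syt1, repo and gcm had 0. The spread among the genes was wide: elav and moody had peaks among the 100 strongest of the whole set by signal, whereas 7 of the 12 summits lay below its median signal. The signal is the authors' own peak value, has no stated unit, and was used only to order peaks within a list. Of 5012 conservative peaks, 4998 were on the main arms, where the median signal was 160. Replicate 1 alone gave 3983 peaks, replicate 2 alone 5551, and the wider joint list 6406. The number of reads is unknown.

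The 4 stretches of genome printed here show the strongest conservative peak of each gene whose strongest peak was above the median signal of the set. They are given on the plus strand of Release 6 (dm6), 100 bp to each side of the summit, and none of them overlaps an annotated UTR. Capitals mark the letters GAGAG or CTCTC (GAGA factor), GATAA or TTATC (GATA factors) and TAATTA (homeodomain proteins). The first lies upstream of elav at chrX:523389-523589, the second upstream of moody at chrX:2050188-2050388, the third beyond nSyb, at the promoters of its neighbours, at chr3L:1639484-1639684, and the fourth in an intron of loco at chr3R:22624858-22625058.
elav: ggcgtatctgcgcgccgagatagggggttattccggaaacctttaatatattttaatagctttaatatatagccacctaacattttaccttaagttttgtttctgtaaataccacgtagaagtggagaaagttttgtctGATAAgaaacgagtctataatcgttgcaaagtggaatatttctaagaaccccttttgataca
moody: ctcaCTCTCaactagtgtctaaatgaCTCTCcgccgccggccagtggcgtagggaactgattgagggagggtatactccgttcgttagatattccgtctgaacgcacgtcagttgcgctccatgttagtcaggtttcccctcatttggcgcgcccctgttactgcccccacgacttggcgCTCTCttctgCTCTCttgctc
nSyb: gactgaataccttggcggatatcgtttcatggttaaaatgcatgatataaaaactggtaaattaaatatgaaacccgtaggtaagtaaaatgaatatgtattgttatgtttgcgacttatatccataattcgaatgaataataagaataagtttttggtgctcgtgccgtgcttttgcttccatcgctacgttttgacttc
loco: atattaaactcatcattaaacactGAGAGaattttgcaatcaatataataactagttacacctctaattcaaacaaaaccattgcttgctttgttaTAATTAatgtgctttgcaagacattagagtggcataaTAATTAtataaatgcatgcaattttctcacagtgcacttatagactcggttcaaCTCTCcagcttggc

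Each of these windows had a composition of its own. The moody window was 55.7% G and C and held the GAGA factor letters 4 times, while the elav window was 35.8% G and C and held the GATA letters once. The loco window held GAGAG or CTCTC 2 times and TAATTA 2 times at 31.8% G and C. The nSyb window held none of the 8 motifs searched. Over all 12 member summits the median content of G and C was 36.8%, with a range of 31.3% to 55.7%, and over all 4998 conservative summits the median was 34.8%.

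**Figure D1:**
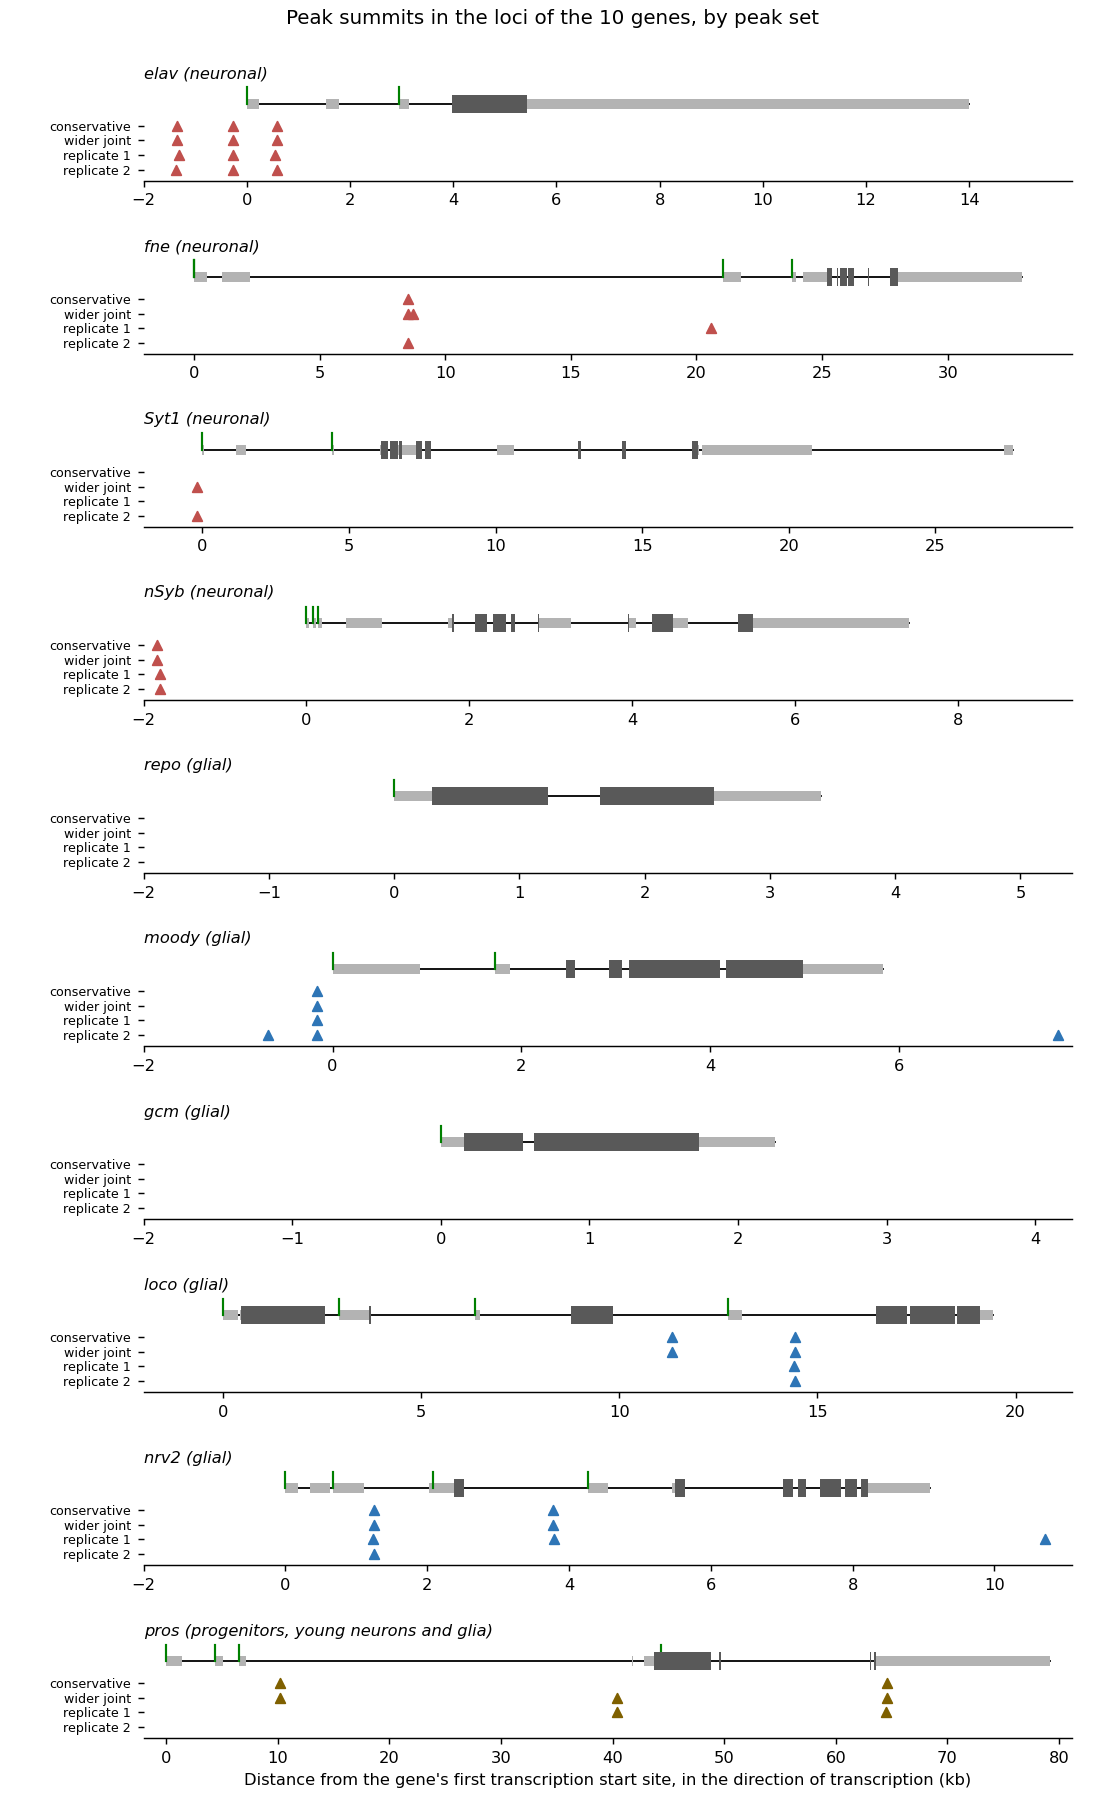
Maps of the 10 loci, with distance from the gene's first start site in kb on the x axis. Grey boxes are exons (dark where coding), green ticks are start sites, and triangles are summits in the 4 thresholded peak sets. The 3 summits of elav recur in all 4 sets, and repo and gcm have no summit in any.

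Among the neuronal genes, elav had the peak of highest signal, which ranked high in both replicates. The gene (FBgn0260400) lies on the minus strand of chromosome X from 509235 to 523226, and its protein binds RNA in the nuclei of neurons. Its strongest peak (523308 to 523658) had a signal of 1295 in the conservative set, rank 77 of 4998, with the summit 263 bp upstream of the first transcription start site (TSS). The same site ranked 90 of 3929 in replicate 1 (signal 484) and 64 of 5544 in replicate 2 (signal 820). The summits of the replicates lay 2 bp and 0 bp from the joint one, so both libraries placed the site at the same position. This is the peak whose sequence is printed first above.

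The other elav summits were weaker and flanked the first. A summit 591 bp downstream of the TSS, in an intron, had a signal of 313 (rank 1035), and one 1358 bp upstream had a signal of 98.4 (rank 3897). The 3 summits were 854 and 1095 bp apart. The replicates ranked the intronic summit differently: 3146 of 3929 in replicate 1 (signal 56.2) and 610 of 5544 in replicate 2 (signal 261). The upstream one ranked 2930 in replicate 1 and 5128 in replicate 2. All 3 summits also lie in an intron of arg, the arginase gene, which overlaps most of elav on the opposite strand (509435 to 528028). Yet elav had the nearest protein-coding TSS each time, the next being that of CG4293 at 5265 to 7214 bp.

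The ELAV family gene fne (FBgn0086675; X, 12917477 to 12950417, plus strand), found in neurons and close in sequence to elav, had weak sites that were not called in both replicates. Its 1 conservative summit lay in an intron 8515 bp from the nearest own TSS (12925817 to 12926180), with a signal of 111 and rank 3552. Replicate 2 called this site (signal 59.0, rank 4061). In the ranked list of replicate 1, which keeps peaks below threshold, it had a signal of 43.7. Its global irreproducible discovery rate (IDR, low where paired lists both rank a peak high) was 0.831 there, against the 0.01 at which the authors' sets were kept. Each ranked list has an IDR of its own, and that of a single replicate was not read as agreement between the 2 replicates. Replicate 1 instead called an intronic summit 454 bp upstream of a downstream TSS of fne (12937893 to 12938232, signal 70.7, rank 2481), which was in no other thresholded set and 374 bp from an annotated HMS-Beagle transposable element. The wider joint set added a second intronic summit close to the first, with a signal of 9.98.

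The genes of synaptic vesicles had little of their own. Syt1 (FBgn0004242; 2L, 2772327 to 2799979, minus strand) encodes the calcium sensor of vesicle release and had 0 conservative summits. A summit 182 bp upstream of its first TSS was in the wider joint set (2799979 to 2800342) at signal 59.1, rank 6039 of 6361, and in replicate 2 at signal 44.4, rank 5037 of 5544. Replicate 1 placed a peak at nearly the same position, 178 bp from the TSS, but with an IDR of 0.809 and rank 13556 of its ranked list. In the joint ranked list this site had an IDR of 0.0303, above 0.01. The joint list used here and below is the one that contains every conservative peak, and it was taken to be the list from which that set was drawn. Outside the locus, the closest conservative summit was 6312 bp from the body of Syt1 and 218 bp from the TSS of aph-1.

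The nSyb gene (FBgn0013342; 3L, 1630348 to 1637752, minus strand) encodes the vesicle SNARE of neurons. Its 1 summit (1639459 to 1639686) was of fair strength, with a signal of 414 and rank 670, but lay 1832 bp upstream of nSyb, next to other genes. The TSS of Bgb, which encodes a partner of Runx factors, was 127 bp away and that of Mettl2, a methyltransferase-like gene, 349 bp away. Both replicates called the site, at rank 756 with a signal of 165 in replicate 1 and at rank 677 with a signal of 245 in replicate 2. With the gene body alone as the locus, nSyb had no summit.

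Among the glial genes, moody stood beside elav in strength. This gene (FBgn0025631; X, 2044292 to 2050120, minus strand) encodes a G protein-coupled receptor of the glia that form the blood-brain barrier. Its peak (2050136 to 2050448) had a signal of 1210, rank 83, with the summit 168 bp upstream of the first TSS. In replicate 1 it ranked 202 (signal 338) and in replicate 2 it ranked 53 (signal 889), with summits 1 bp and 0 bp from the joint one. The summit also lies in an intron of CG4313, a gene on the opposite strand whose nearest TSS was 2396 bp away. Replicate 2 alone called 2 further weak summits in the locus, with signals of 46.9 and 45.2, and that of signal 46.9 lay 127 bp from the shared start of Actn and usp, the genes of alpha-actinin and of a nuclear receptor.

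The gene loco (FBgn0020278; 3R, 22619968 to 22639387, minus strand), whose protein regulates G protein signalling downstream of moody, had its sites inside introns. The stronger (22624861 to 22625044) had a signal of 262, rank 1332, and lay 1676 bp downstream of an internal TSS and 14429 bp from the first one. Both replicates called it, at rank 1153 in replicate 1 (signal 127) and rank 1720 in replicate 2 (signal 131). The weaker loco summit, at 22628067, had a signal of 78.2 and rank 4533, and neither replicate called it. In the replicates' ranked lists it had IDRs of 0.0160 and 0.0146, just above the threshold in both, while the joint ranked list gave it 0.00690. The nearest TSS of any annotated gene was here that of a long non-coding RNA, lncRNA:CR43475, at 730 bp.

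The nrv2 gene (FBgn0015777; 2L, 6789770 to 6798862, minus strand) encodes a beta subunit of the sodium and potassium pump. Its conservative summits were intronic and weak. That at 6797618 lay 576 bp from an own TSS, with a signal of 127 and rank 3164, and both replicates called it, with signals of 48.3 in replicate 1 and 74.4 in replicate 2. That at 6795091 lay 492 bp upstream of another own TSS, with a signal of 94.3 and rank 4029, and was called in replicate 1 (signal 58.9) but not in replicate 2. Replicate 1 also called a summit downstream of nrv2 (signal 77.7), nearer to the paralogous pump gene nrv1, whose TSS was 1284 bp away.

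Neither of the transcription factors of glial fate had a called site. At repo (FBgn0011701; 3R, 18236192 to 18239602, plus strand), the homeodomain gene of glia, the strongest peaks of the ranked lists lay 1323 bp upstream of the TSS in replicate 1 and 1328 bp in replicate 2. Those positions differ by few bases, but their IDRs were 0.483 and 0.123 and their ranks 10307 of 112073 and 11258 of 89892. At gcm (FBgn0014179; 2L, 9579498 to 9581745, minus strand) the strongest peaks ranked 30390 in replicate 1 and 28030 in replicate 2, at different positions, 557 and 2573 bp from the TSS. The closest conservative summits were 4849 bp from the body of repo, with 14-3-3epsilon as the nearest gene, and 9408 bp from that of gcm, beside brwl. In the wider joint set a summit lay 2673 bp from the gcm body, 56 bp from the TSS of Mtpalpha.

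The pros gene (FBgn0004595; 3R, 11328480 to 11407627, plus strand), a homeodomain factor that ends self-renewal in neural precursors, had the longest locus, 83.1 kb, and sites of low rank. One conservative summit (11392850 to 11393213) lay in the annotated 3′ UTR, 20244 bp from an own TSS and 14886 bp from that of mRpL40, with a signal of 99.7 and rank 3853. Replicate 1 called it with a signal of 65.9, and in replicate 2 the site had a signal of 36.5 and an IDR of 0.145. The other (11338476 to 11338839) was intronic, 3678 bp from an own TSS and 2351 bp from that of lncRNA:CR46008, with a signal of 76.4 and rank 4594. Neither replicate called it, and its IDRs were 0.708 in replicate 1 and 0.584 in replicate 2, while the joint ranked list gave 0.00989. An intronic summit at 11368905 was in the wider joint set (signal 87.8) and in replicate 1 (62.4). Replicate 2 called no summit at pros.

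**Figure D2:**
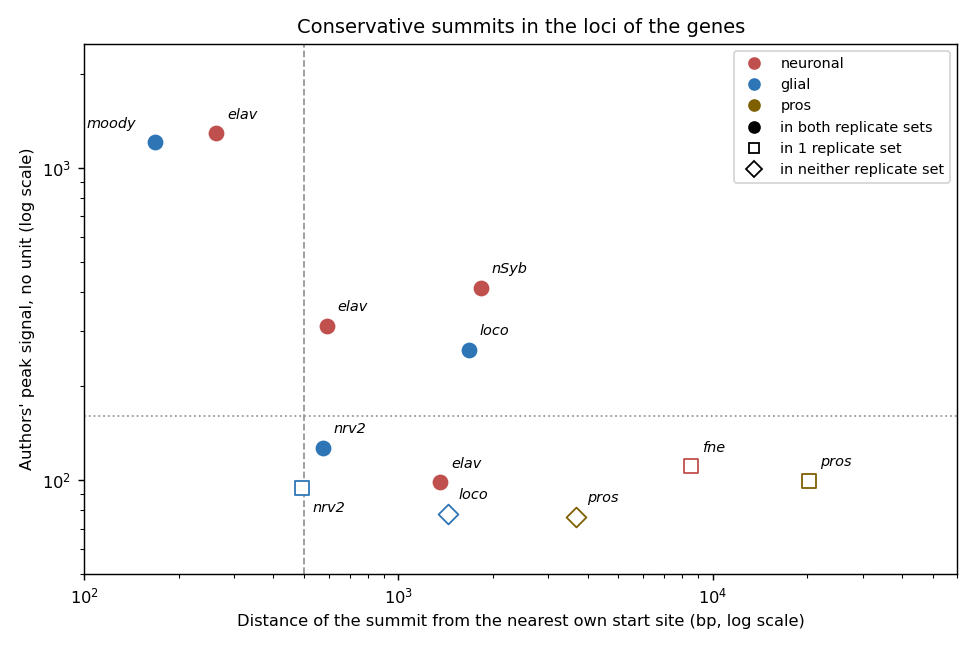
The 12 conservative summits in the loci, with distance from the nearest own start site in bp on the x axis and the authors' signal on the y axis, both on log scales. Filled circles were called in both replicates, open squares in 1 and open diamonds in neither. The dashed line is at 500 bp and the dotted line at the median signal of the set, 160. Only moody and elav combine a distance under 500 bp with a signal above that median.

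Most of the genes had no summit at a start site of their own, and the same held over all protein-coding genes. A conservative summit lay within 500 bp of an own TSS at 3 of the 10 genes, namely elav, moody and nrv2, and at 17.2% of all protein-coding genes. Of the 12 summits, 4 lay upstream of the gene, 7 in introns and 1 in a 3′ UTR. Over all 7482 pairs of a conservative summit and a protein-coding locus that holds it, 37.9% were upstream, 37.2% in introns and 0.976% in a 3′ UTR, and 19.2% were downstream of the gene. The nearest protein-coding TSS was the gene's own for 10 of the 12, the exceptions being the nSyb summit and the pros summit in the 3′ UTR, and for 54.4% of all those pairs. With the TSSs of all annotated genes, non-coding ones included, it was the gene's own for 8 of the 12. No share over all pairs was computed for that setting. Within 250 bp of an own TSS only moody had a summit, with that of elav just outside at 263 bp. The share of all protein-coding genes was not computed at 250 bp, so this count has no background to be read against. A peak among the 250 strongest of the set was present in the locus of 2 genes, elav and moody, and in that of 3.32% of all protein-coding genes. Both lie on chromosome X, as does fne, and 5 of the 12 summits were on that chromosome, with 21.1% of all 4998 conservative summits. The 5 come from these 3 genes, and 15.7% of all protein-coding genes lie on X.

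The 5 summits above the median signal were at elav (2), nSyb, moody and loco, and all 5 were called in both replicates. Of the 7 below the median, 2 were called in both. In the whole set, 93.2% of the peaks above the median signal overlapped a peak of each replicate, and 34.2% of those below. Of all 12 summits, 9 overlapped a peak of replicate 1, 8 one of replicate 2, 7 both and 2 neither, while over the set these shares were 71.4%, 83.0%, 63.7% and 9.24%. The 7 weaker summits also had the most common width, 364 bp, with the summit within 1 bp of the centre, as did many in the whole set, where 61.3% had that width. For such peaks the summit is no finer a position than the centre of the region.

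**Figure D3:**
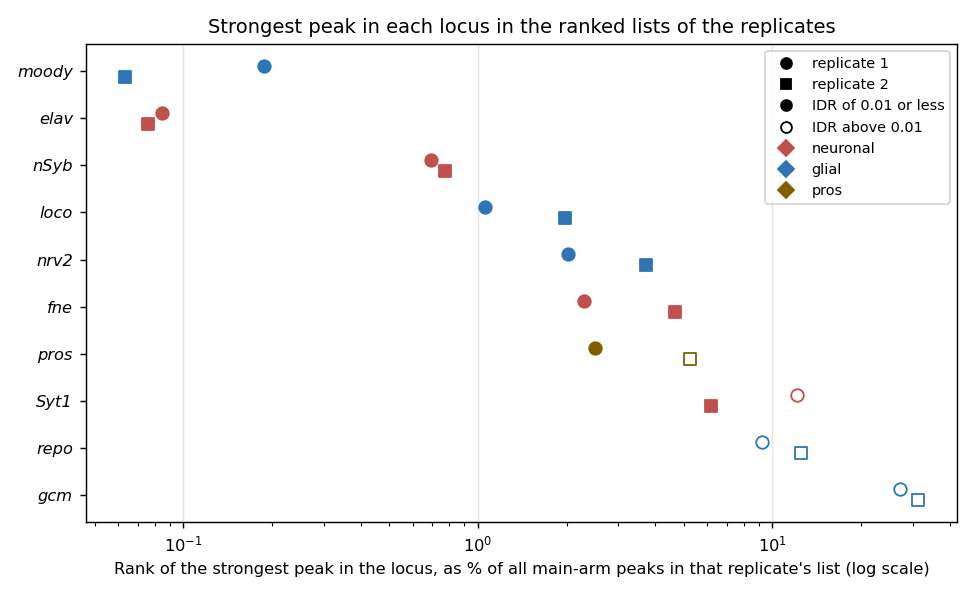
Rank of the strongest peak in each locus, as a percentage of all main-arm peaks in the ranked list of that replicate, on a log scale. Circles are replicate 1, squares replicate 2, and filled symbols have an IDR of 0.01 or less. The strongest peaks of moody and elav were within the top 0.188% in both lists, and those of gcm at 27.1% and 31.2%.

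In the ranked lists elav and moody came first and gcm last in both replicates. The strongest peak in the moody locus ranked at the top 0.188% of the ranked list in replicate 1 and 0.0634% in replicate 2, and that of elav at 0.0848% and 0.0756%. That of nSyb was at 0.695% and 0.774%, and that of loco at 1.06% and 1.97%. Then came nrv2 (2.03% and 3.73%), fne (2.29% and 4.68%) and pros (2.49% and 5.24%), where the strongest peak of the 2 lists was not the same site. At Syt1 the percentages were 12.1% and 6.19%, at repo 9.20% and 12.5%, and at gcm 27.1% and 31.2%. The ranked lists held 112073 and 89892 main-arm peaks, so nearly every locus contains some of their peaks and presence in them alone carries little information.

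**Figure D4:**
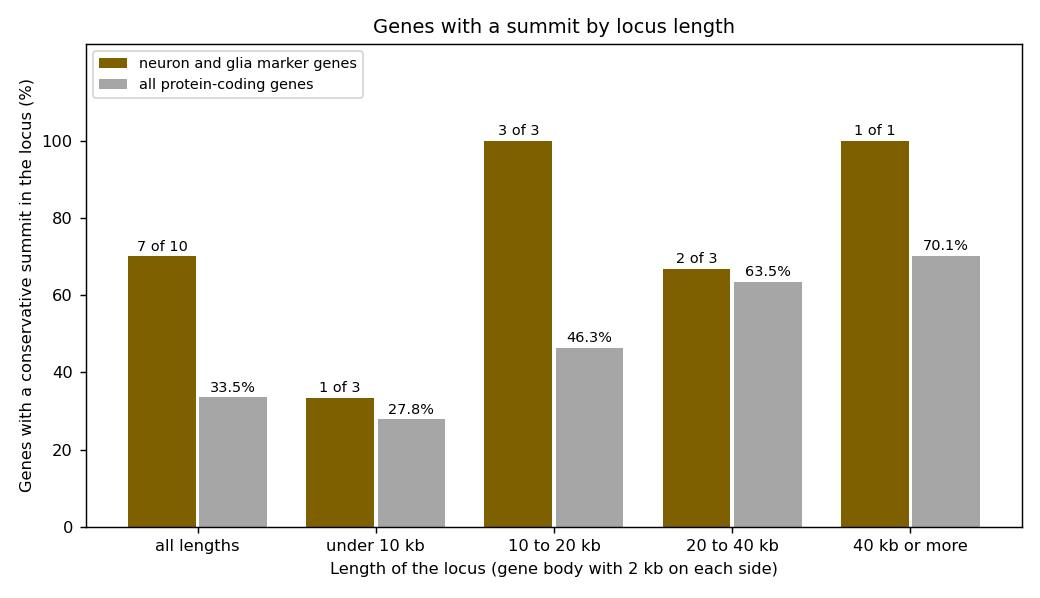
Percentage of genes with a conservative summit in the locus, for the 10 marker genes and for all protein-coding genes, in all and by length of the locus. Numbers above the bars give counts of marker genes and percentages of all genes. In all genes the share runs from 27.8% in loci under 10 kb to 70.1% in loci of 40 kb or more.

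The count of genes with a summit has to be read against the length of the loci. The marker genes had a median locus of 15.5 kb (range 6.25 to 83.1 kb), while the median over all protein-coding genes was 6.17 kb. Of the 3 marker genes under 10 kb (repo, moody and gcm), 1 had a summit, and 27.8% of all genes in that range did. From 10 to 20 kb all 3 (elav, nSyb and nrv2) had one, with 46.3% of all genes. From 20 to 40 kb 2 of 3 (fne and loco, not Syt1) had one, with 63.5% of all genes, and at 40 kb or more pros had one, with 70.1%. Per length the marker genes held 49.8 conservative summits per Mb of locus (exact Poisson 95% interval 25.7 to 86.9, counting error only), and all protein-coding genes 49.2. By this measure the marker genes as a group were close to the background of that set, though the interval is wide. The value leans on pros, which supplied 83.1 of the 241 kb of locus and 2 of the 12 summits. In replicate 1 the marker genes held 49.8 per Mb (25.7 to 86.9), with 37.0 over all genes. In replicate 2 they held 45.6 (22.8 to 81.6), with 59.4 over all genes.

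The other peak sets gave similar counts of genes with a summit in the locus, and they differed in this only at Syt1 and pros. In the wider joint set 8 of 10 genes had a summit (40.1% of all protein-coding genes), with Syt1 added. Replicate 1 alone gave 7 of 10 (27.2% of all genes) and replicate 2 alone 7 of 10 (40.1%), the difference being pros in replicate 1 and Syt1 in replicate 2. Within 500 bp of an own TSS the counts were 4 of 10 in the wider joint set (21.4% of all genes), 4 of 10 in replicate 1 (13.3%) and 3 of 10 in replicate 2 (22.6%). The genes behind these counts differed: only elav and moody had such a summit in both replicates. At fne and nrv2 it was in replicate 1 alone, and at Syt1 in replicate 2 alone. In each replicate alone the genes elav, fne, nSyb, moody, loco and nrv2 had a summit in the locus.

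Further genes of the nervous system were counted in the same way, against the 33.5% of all protein-coding genes with a conservative summit in the locus and the 17.2% with one within 500 bp of an own TSS. Of 15 other neuronal genes, 7 had a conservative summit, and 2 (Fas2 and CadN, both adhesion genes) had one within 500 bp of an own TSS. Their loci had a median of 41.8 kb but ran from 6.64 to 229 kb. Over all genes the share with a summit was 27.8% in loci under 10 kb and 46.3% from 10 to 20 kb. It was 63.5% from 20 to 40 kb and 70.1% at 40 kb or more, so no single share fits the whole list. The strongest were at VAChT, the vesicular transporter of acetylcholine (signal 318, rank 1004), at Syn, a synaptic vesicle protein (316, rank 1021), and at Rbp9, the remaining ELAV family gene (145, rank 2780). The VAChT summit lay 14499 bp from an own TSS and nearest to CG34283, and the Syn summit 22961 bp from an own TSS and nearest to Timp. At Rbp9 the summit was 840 bp from an own TSS. Among the 3 ELAV family genes the strongest conservative signals were thus 1295 at elav, 145 at Rbp9 and 111 at fne. Their loci measured 18.0, 17.7 and 36.9 kb, and a summit was present in 46.3% of all loci of 10 to 20 kb and in 63.5% of those of 20 to 40 kb.

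Of 10 other glial genes, 5 had a conservative summit, and 3 (wrapper, Gli and htl) had one within 500 bp of an own TSS. A place in this list does not mean use in glia alone. In whole embryos a site at htl or pnt, for example, cannot be assigned to glia or set apart from muscle precursors. Their loci ran from 7.04 to 59.9 kb, with a median of 11.1 kb. A summit was present in 27.8% of all loci under 10 kb, in 46.3% of those of 10 to 20 kb and in 70.1% of those of 40 kb or more. The strongest was at Gs2, which encodes glutamine synthetase (signal 483, rank 515, 561 bp from an own TSS). It was followed by pnt, an Ets factor of glial differentiation (8 summits, highest signal 341, 12168 bp from an own TSS), and by Gli, a septate junction gene (255, rank 1381, 335 bp). The second gcm gene of the genome, gcm2, had 0 summits in every thresholded set, like gcm, and its locus of 8.14 kb was in the range where 27.8% of all genes had one. Of 12 genes of neural progenitors and asymmetric division, 4 had a summit, close to the share over all genes, and 2 had one within 500 bp of an own TSS. Their median locus was 7.34 kb. All 4 genes with a summit had loci above 10 kb. No shorter locus of the list held one, while 27.8% of all loci under 10 kb did. The strongest were at numb (769, 193 bp from an own TSS), brat (657, 713 bp) and insc (163, nearest to sktl).

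Of the 8 motifs searched, 6 were found near at least 1 marker gene summit. Each was searched on both strands within 100 bp of the 12 summits and of all 4998. GAGAG was at 6 of the 12 (at elav, moody, loco, nrv2 and both pros summits) and at 21.5% of the set. GATAA was at 4 of 12 (38.8% of the set), CANNTG, the E-box, at 5 (59.6%), TAATTA at 2 (18.4%), and CACACA at 2, both at elav (14.5%). The core letters of DREF, ATCGAT, were at 1 summit, of nrv2 (7.98%), where they overlap GATAA. The Gli-type letters CCACCCA were at 0 of 12 (2.26%), and ATGCGGG, a Gcm-type site, at 0 of 12 (0.680%). A match says only that the letters are present. With 12 windows the counts are small, and whether they differ from the set was not tested.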

How the data were processed

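Peak lists of 2 samples of 1 group were used, on the assembly dm6 per the labels. The labels give DNA fragments of 200 to 800 bp from sonication. Not given in the sources used here were the aligner, the peak caller and the read depth. The deposited signal of each peak is the value of the authors' peak caller, with no normalization stated. The deposited score is a whole number of at least 830 in the thresholded sets and follows the IDR. The deposited ranked lists give the −log10 of the global IDR, capped by the authors, so the IDR was computed from it. The authors deposited separate peak lists for the single replicates and joint lists for the pair. The 16 further columns per peak of the joint ranked lists were not used.

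Summits were placed on genes of Ensembl annotation release 115 for Release 6, whose arm lengths were checked against the peak ends. Promoter windows were 500 bp on each side of a TSS. Sets were matched by an overlap of at least 1 bp. Placement was tested on simulated data. Sequences came from the RefSeq assembly of Release 6. Python 3.11.15, pandas 2.3.3, numpy 2.4.6 and pysam 0.24.0 were used. No differential test was made, since there is 1 group. The genes and lists were chosen with earlier results of these data known. Named were all 10 genes, the genes with the nearest TSS or a TSS within 500 bp, up to 3 genes per further list with the highest signal, and others chosen after their values were seen (Fas2, CadN, wrapper, htl and gcm2). Alternatives were the wider set, each replicate alone, IDR limits of 0.001 and 0.05, peak overlap, flanks of 0 and 5 kb, TSS windows of 250 and 1000 bp, and TSSs of all genes.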

Additional observations from a re-analysis of the deposited data

How the results depend on the processing

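Of the 7 genes with a summit, 4 (elav, nSyb, moody and loco) had one at an IDR of 0.001 or less, where the loci held 5 summits, 4 of them nearest to an own TSS, and 24.1% of all protein-coding genes had a summit. At an IDR of 0.05 or less 9 genes had one, all but gcm, with 41.2% of all protein-coding genes, and 16 summits were nearest to an own TSS. With TSS windows of 250 bp, 1 gene had a summit at an own TSS, and the share of all protein-coding genes was not computed at that setting. Without a flank 5 genes had a summit, nSyb and moody being lost, against 12.5% of all protein-coding genes, and with 5 kb 8 genes had one, against 47.4%. Over the other settings the counts stayed within 1.5 times. Each replicate alone gave 7 genes, with 11 or 12 summits. For single genes 22 of 30 counts of summits stayed within 1.5 times in the wider set or in 1 replicate alone, and 8 did not, among them pros, with 0 summits in replicate 2. Why these values moved was not tested beyond the settings themselves. The control libraries were not analysed here, so nothing shows how the loci look without the antibody's target, and unknown read depth limits which weak peaks could be called.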
